A study of Oryza sativa with 9 samples.

Results

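Transcripts of developing rice (Oryza sativa) seeds were compared between wild type (WT) and 2 lines with an amino acid change in RBP-P, with both mutant lines pooled into 1 group. P1MH carries G401S and P3MH carries A252T. All 9 libraries entered the comparison, 6 from mutants (3 per line) and 3 from WT, and each was made from total RNA of seeds without hulls at 10 to 14 days after flowering. All plants were kept in growth chambers at 27 °C under 12 h light and 12 h dark. The labels name no allele or agent that the 3 genotypes share, and neither the cultivar nor the way the mutants were made is given. Each mutation was represented by 1 line, and the design text calls the 3 samples of a genotype biological repeats. A locus was used where its mean over the 9 libraries, after median-ratio rescaling, was at least 1 RPKM (reads per kilobase of exon, relative to library depth). This held for 16047 of the 55986 loci in the deposited table. A locus was called changed where the mean of the 2 lines differed from WT at a false discovery rate (FDR) of 0.05 by limma and both lines had moved the same way.

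Messenger RNAs of seed storage proteins are bound by RBP-P, a protein with RNA recognition motifs. In rice endosperm these RNAs are sorted to separate regions of the endoplasmic reticulum, glutelin RNA to the cisternal region and prolamine RNA to the membrane around prolamine protein bodies. Glutelins pass on to storage vacuoles, while prolamines are kept in the endoplasmic reticulum. A developing seed also holds an embryo, an aleurone layer and maternal tissue, each with its own transcripts.

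The libraries held 5865007 to 7498434 reads, recovered from the steps between RPKM values, and 3 reads on 1 kb of exon were worth 0.40 to 0.51 RPKM. Between 22155 and 24192 loci per library were above 0. Among low values whose steps could be read, 29.7 to 31.1% in the WT libraries lay on steps of 0.5 read, against at most 0.0324% in any mutant library. Why the steps differ was not tested, and the difference cannot be told apart from genotype in any comparison below. Over the 1526 tested loci with readable steps, 353 had whole reads in all 3 WT libraries, and of these 10.5% were called higher and 3.12% lower in the mutants. Of the 1173 with a 0.5-read value in at least 1 WT library, 3.67% were called higher and 4.94% lower. The groups also differed in level, with medians of 1.96 RPKM for the 353 loci and 2.92 for the 1173. Few reads in WT make whole steps likelier, and the part of level in these shares was not tested. Whether the steps took part in single calls was not tested. As a check of the tissue, the endosperm gene GluA-1 lay at 12208 to 24074 RPKM over the 9 libraries, the embryo and aleurone gene OLE18 at 285 to 824 and the green-tissue gene RBCS-C at 5.39 to 12.3. RBCS-C is a low member of its list: the 5 photosynthesis genes summed to 249 to 296 RPKM in WT and 217 to 348 in the mutants. OLE18 and RBCS-C were also called between the genotypes, higher and lower in the mutants.

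Of the 16047 loci, 1195 were called (7.45%), 679 higher in the mutants (4.23%) and 516 lower (3.22%). None passed the FDR with opposite signs in the lines. The median log2 fold change, on the log2(RPKM + 1) scale used throughout, was 0.80 among the higher loci (0.86 in P1MH and 0.77 in P3MH) and -0.87 among the lower loci (-0.95 and -0.81). At least 2-fold changes on that scale were seen at 245 higher and 211 lower loci, and at least 8-fold changes at 14 and 35. In whole seeds, a change in the number of cells of a type and a change in RNA per cell cannot be told apart. Leaving out a WT library lowered the counts: the calls numbered 411 higher and 283 lower without WT replicate 1, 295 and 232 without replicate 2, and 258 and 207 without replicate 3. Without rescaling, the median of all tested loci was -0.11 in place of 0.00, and 33.1% of the calls were higher in place of 56.8% (471 higher and 952 lower).

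The lines lay within 0.5 of each other on the log2 scale at 547 of the 679 higher loci (80.6%) and 379 of the 516 lower loci (73.4%), beside 90.5% of all tested loci. Called loci were chosen on the mean of both lines with a shared sign, against the same WT libraries, so these shares are a description. Both lines passed the FDR on their own at 258 higher and 200 lower loci, and neither did at 59 and 34. P1MH alone passed at 262 higher and 200 lower loci, and P3MH alone at 100 and 82. The change was larger in P1MH at 421 of the 679 higher and 309 of the 516 lower loci. All 6 mutant libraries lay above all 3 WT libraries at 600 of the higher loci, and below them at 437 of the lower loci. Over all tested loci, 12.6% showed such a separation, 7% above and 5.58% below. By limma, P1MH and P3MH differed from each other at FDR 0.05 at 1 higher and 1 lower called locus, and at 5 of all 16047 (0.0312%). At an unadjusted p under 0.05 the lines differed at 171 of the higher loci (25.2%), 161 of the lower loci (31.2%) and 2137 of all tested loci (13.3%).

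Called loci took different shares of the RNA in the 2 genotype classes. As a share of all deposited RPKM, the 679 higher loci held 5.40, 4.49 and 4.12% in the WT libraries, 8.73, 8.53 and 8.63% in those of P1MH and 7.02, 6.62 and 6.68% in those of P3MH. The 516 lower loci held 4.69, 7.70 and 7.09% in WT and 1.26 to 1.58% in the mutants. LOC_Os05g26386 on chromosome 5, singled out after its values were seen, alone held 1.53, 4.75 and 3.93% in WT. These shares describe loci chosen by their change. Calls were more frequent among abundant loci, from 5.60% of loci between 1 and 2 RPKM to 13.6% of the 44 loci at 1000 RPKM or more.

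**Figure D1:**
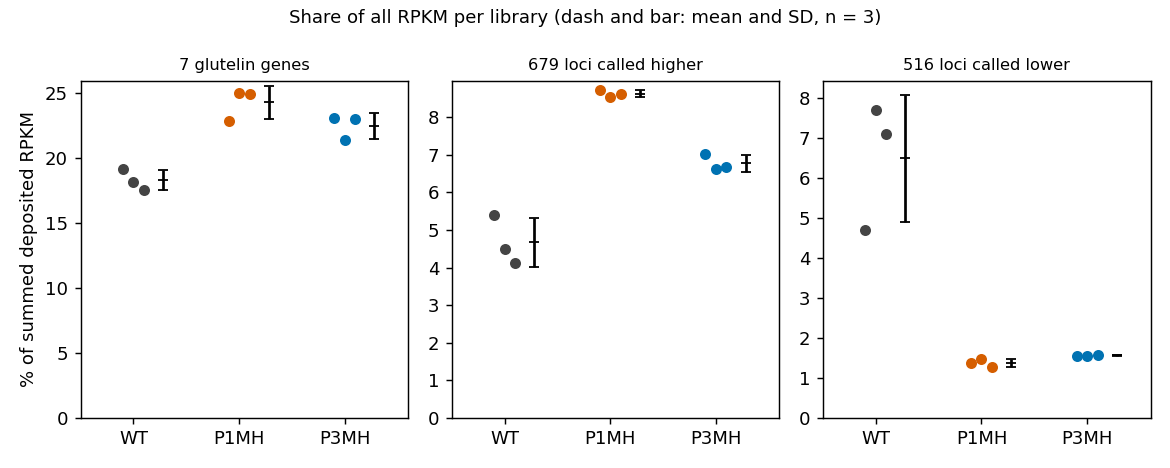
Share of all deposited RPKM (%, y axis from 0) held in each of the 9 libraries by 7 glutelin genes, by the loci called higher and by the loci called lower; points are libraries, the dash and bar are the mean and SD of 3. Glutelins held 17.6 to 19.2% in WT and 21.4 to 25.04% in the mutants, and the lower loci at most 1.58% in any mutant library.

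The level of RBP-P itself was examined as a check of the mutated gene. RBP-P (LOC_Os01g16090, chromosome 1, 9063968 to 9066787 in the coordinates of the deposited table) stood at 14.8, 12.4 and 12.0 RPKM in the WT libraries, at 11.2, 10.2 and 7.30 in those of P1MH and at 8.85, 13.02 and 8.10 in those of P3MH. Of the mutant libraries, 1 of P3MH lay within the WT range and the other 5 lay below it. The pooled log2 difference was -0.40 (SE 0.17, limma adjusted p = 0.186), which did not pass. An exact two-sided permutation test over the 84 ways of choosing 3 of 9 libraries gave p = 0.0595. The transcript level does not check an amino acid change.

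Names could be given to 176 genes whose entry of that name in RefSeq (assembly ASM3414082v1) lay on the same chromosome with a like span and order. Of these, 151 were tested and 25 were called, 10 higher and 15 lower. The shares over all tested loci were 7.45% called, 4.23% higher and 3.22% lower, and they also stand beside each list count below. The other 25 named genes averaged under 1 RPKM. The lists are partial, since planned genes such as GluC, BEIIa, BEIIb, PUL and RPBF were not among the names listed. The plot of named genes by list shows each tested gene with its list.

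**Figure D2:**
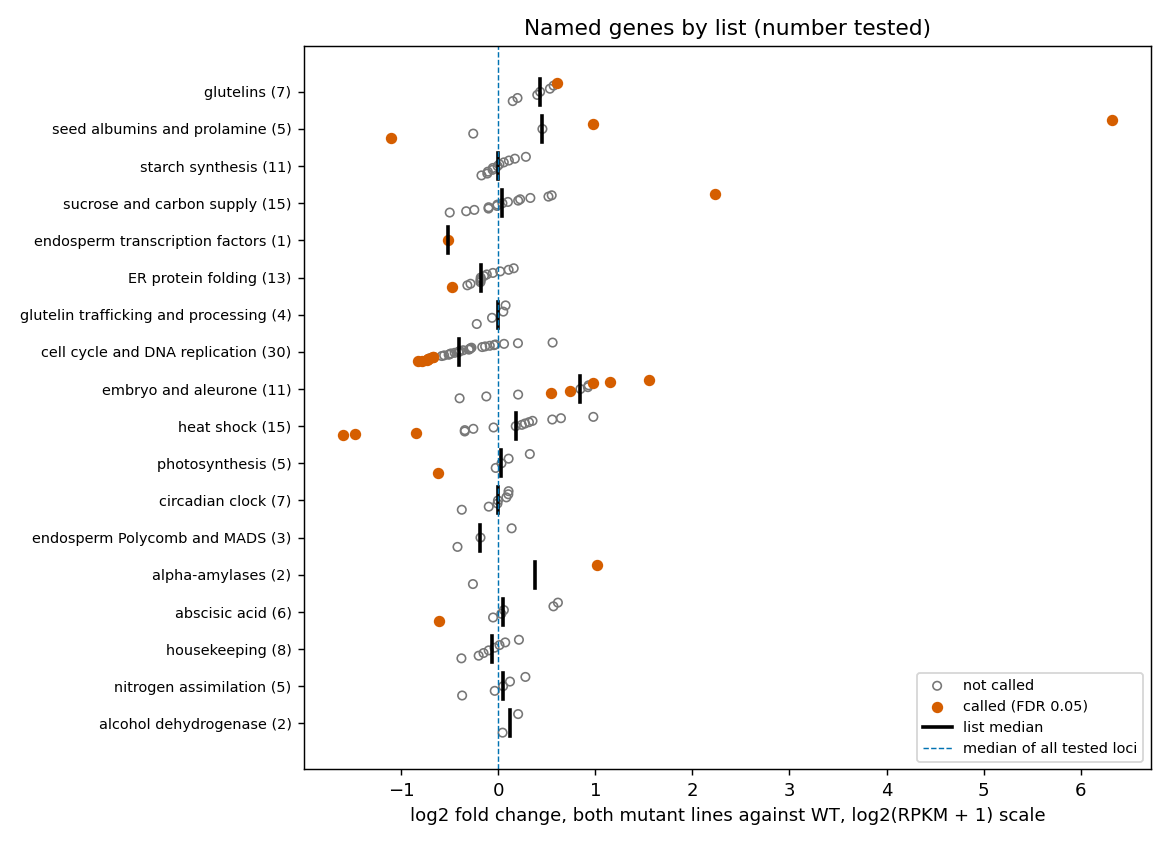
Pooled log2 fold change (x axis, log2(RPKM + 1) scale) of the tested named genes, 1 row per list with the number tested; filled points passed FDR 0.05, open points did not, the black bar is the list median and the dashed line the median of all tested loci. The embryo and aleurone list has a median of 0.85 with 5 called genes to the right, and the cell cycle list a median of -0.41 with 7 called genes to the left.

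Of 7 tested genes of glutelins, the main storage proteins of rice endosperm, 1 rose and none fell. All 7 had a positive pooled difference, 6 of 7 with quantile normalization. GluA-2 (LOC_Os10g26060) stood at 10715, 10133 and 9212 RPKM in the WT libraries, at 16809, 17974 and 18242 in those of P1MH and at 13922, 11856 and 13534 in those of P3MH. All 6 mutant libraries lay above WT, with P1MH highest. A change of 0.60 on the log2 scale was estimated (SE 0.16, limma adjusted p = 0.0432), a call that was lost in 12 of 21 alternative settings, among them the deposited values, quantile normalization and the omission of each WT library in turn. The same separation of all libraries was seen for GluA-1 (0.57, limma adjusted p = 0.0589), GluB-5 (0.53, adjusted p = 0.0686) and GluA-3 (0.43, adjusted p = 0.155), which did not pass. Over all tested loci, 7% had all 6 mutant libraries above all 3 WT libraries. GluB-2, GluB-4 and GluD-1 had overlapping groups. The list median was 0.43, beside 0.00 over all loci, and was 0.21 with quantile normalization and 0.30 with the values as deposited. Together the 7 genes held 19.2, 18.2 and 17.6% of all RPKM in the WT libraries, 22.8, 25.04 and 24.98% in those of P1MH and 23.1, 21.4 and 23.0% in those of P3MH. The glutelin genes resemble each other closely, and the sharing of reads among them was not tested.

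Of 5 tested genes of seed albumins, small sulfur-rich proteins known as rice seed allergens, and of a prolamine, 2 rose and 1 fell, with a median of 0.46. RAG1 (LOC_Os07g11360, chromosome 7, 6254861 to 6255627) stood at 0.263, 0.0835 and 0.261 RPKM in the WT libraries, at 115, 83.4 and 135 in those of P1MH and at 78.2, 110 and 65.9 in those of P3MH. In every WT library it thus lay below the 0.40 to 0.51 RPKM of 3 reads on 1 kb, and in every mutant library far above. RAG1 was not among the loci with readable steps, so whether 0.5-read steps entered its WT values was not tested. On the log2 scale the mutants differed from WT by 6.32 (SE 0.18, limma adjusted p = 3.76e-10), the largest rise among called loci with separate groups and at least 5 RPKM in the higher group. RA16, at 146 ± 58.0 RPKM in WT (SD, n = 3), rose to 342 ± 71.7 RPKM in the P1MH libraries and to 224 ± 24.2 in those of P3MH, a log2 fold change of 0.98 (SE 0.22, limma adjusted p = 0.0195). WT replicate 1, at 212 RPKM, lay above the lowest P3MH library at 197, and the call was lost without WT replicate 2 and without WT replicate 3.

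RA5, another albumin, fell. It stood at 1422, 1859 and 1493 RPKM in the WT libraries, at 707, 880 and 922 in those of P1MH and at 809, 635 and 527 in those of P3MH, so that every mutant library was below every WT library. This gave a pooled log2 difference of -1.11 (SE 0.18, limma adjusted p = 0.0027). RAG2 at 371 to 997 RPKM in WT and 367 to 710 in the mutants, and the prolamine RP6 at 2714 to 3450 and 2360 to 7079 RPKM, were not called. The summed level of RAG1, RA16 and RA5 was 1598 to 1980 RPKM in WT and 834 to 1451 in the mutants. Most of this sum was RA5, itself called lower, and RAG2 was left out, so it is no total of the albumins. The albumin genes lie in 1 cluster on chromosome 7 and are alike in sequence, and the assignment of reads among them was not tested. RAG1 was near 0 in WT while RA5 and RAG2 were abundant there.

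The starch synthesis genes on the list had no call among 11 tested, with a median of -0.01. Other genes of the pathway, among them BEIIa, BEIIb and PUL, were not examined by name. Branching enzyme BEI, which makes the branch points of amylopectin, stood at 2353, 2152 and 2031 RPKM in the WT libraries, at 1892, 2348 and 1864 in those of P1MH and at 2561, 2706 and 2340 in those of P3MH. AGPS2, a small subunit of ADP-glucose pyrophosphorylase, lay at 1625, 1544 and 1381 RPKM in the WT libraries, at 1278, 1407 and 1277 in those of P1MH and at 1693, 1812 and 1659 in those of P3MH. In both genes the WT mean lay between those of the lines, and the log2 differences were 0.06 (SE 0.15) and -0.01 (SE 0.14).

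Among 15 tested genes of sucrose use, sugar transport and carbon supply, 1 rose and none fell, beside 7.45% of all tested loci called. PPDK2, a pyruvate orthophosphate dikinase, which interconverts pyruvate and phosphoenolpyruvate, stood at 7.88, 7.25 and 5.36 RPKM in the WT libraries, at 27.1, 29.1 and 64.6 in those of P1MH and at 28.9, 34.0 and 38.8 in those of P3MH. The groups did not overlap. The fitted log2 difference came to 2.23 (SE 0.24, limma adjusted p = 0.000186). Its relative PPDKB, at 2322 RPKM on average in WT, had a pooled log2 difference of -0.25 that did not pass, with opposite signs in the lines, -0.61 in P1MH and 0.12 in P3MH. The sucrose synthases SUS4 and SUS3 had separate groups and opposite signs, 0.52 (limma adjusted p = 0.0605) and -0.50 (adjusted p = 0.0643), and did not pass. The list median was 0.04.

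NF-YB1, an endosperm transcription factor that acts on sucrose transporter genes, fell. It was the only gene of its list examined by name. It lay at 198, 179 and 178 RPKM in the WT libraries, at 110, 124 and 136 in those of P1MH and at 143, 151 and 114 in those of P3MH, with no overlap. A change of -0.52 on the log2 scale was estimated (SE 0.13, limma adjusted p = 0.0373). The call was lost in 11 of 21 alternative settings, among them no filter, the replicate block and the omission of each WT library in turn. The sucrose transporter SUT1 had a pooled log2 difference of -0.01, with 0.18 in P1MH and -0.20 in P3MH, and did not pass.

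Chaperones and folding enzymes of the endoplasmic reticulum had 1 call among 13 tested, beside 7.45% of all tested loci, with a list median of -0.18. PDIL5-1, of the protein disulfide isomerase family, stood at 37.3, 36.4 and 34.5 RPKM in the WT libraries, at 21.94, 24.6 and 20.3 in those of P1MH and at 25.6, 36.3 and 27.99 in those of P3MH. A single P3MH library lay within the WT range and the other 5 mutant libraries lay below it. On the log2 scale the mutants differed from WT by -0.47 (SE 0.13, limma adjusted p = 0.0416). The call was lost in 12 of 21 alternative settings, among them no filter, the replicate block and the omission of each WT library in turn. The abundant members PDIL1-1 and BiP1 averaged 2239 and 1645 RPKM in WT, with WT between P1MH (1493 and 1316 RPKM) and P3MH (2690 and 1990 RPKM). Neither passed, nor did any of 4 genes of glutelin trafficking and processing. VPE1, the vacuolar processing enzyme that cleaves proglutelin, had a log2 difference of 0.08 (SE 0.13) with opposite signs in the lines, and RAB5A, a small GTPase of glutelin transport, one of 0.05 (SE 0.14).

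Of 30 tested genes in cell division and DNA replication, 7 fell and none rose, beside 3.22% of all tested loci called lower. Of the 30, 27 had a negative pooled change and 24 were negative in both lines, beside 5772 negative in both lines among all 16047 loci. The list median was -0.41, and its summed level was 126 to 164 RPKM in WT and 87.2 to 114 in the mutants. PCNA, the sliding clamp of DNA polymerase, stood at 12.4, 12.5 and 15.6 RPKM in the WT libraries, at 6.74, 8.30 and 5.97 in those of P1MH and at 9.64, 9.79 and 8.48 in those of P3MH. Every mutant library was below every WT library, and P1MH was lower than P3MH throughout. This gave a pooled log2 difference of -0.67 (SE 0.13, limma adjusted p = 0.00916), and the call was lost without WT replicate 3.

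The other replication genes that fell were subunits of the MCM helicase, which unwinds DNA at the fork, and of replication protein A, which coats single-stranded DNA. MCM5 lay at 5.84, 5.78 and 8.38 RPKM in the WT libraries, at 3.14, 2.47 and 3.11 in those of P1MH and at 4.47, 4.02 and 4.70 in those of P3MH. Its groups did not overlap, with a log2 difference of -0.73 (SE 0.15, limma adjusted p = 0.0116). MCM2 changed by -0.79 (adjusted p = 0.0362), MCM3 by -0.72 (adjusted p = 0.0366) and MCM7 by -0.67 (adjusted p = 0.0445), each with overlapping groups. RPA70B changed by -0.83 (limma adjusted p = 0.0163) and RPA14 by -0.74 (adjusted p = 0.0344), with separate groups. MCM5 lost its call without WT replicate 3, MCM2, MCM3 and RPA70B without WT replicate 2 or 3, and RPA14 and MCM7 without any 1 of the 3. Over all alternative settings, calls were lost in 10 of 21 for MCM2, 9 of 21 for MCM3, 9 of 20 for RPA14 and 12 of 20 for MCM7. All 7 calls of the list, that of PCNA included, were lost when all P1MH libraries were left out. In P1MH alone all 7 genes passed. In P3MH alone none did, with limma adjusted p from 0.104 (PCNA) to 0.356 (MCM2). MCM6 (-0.58, limma adjusted p = 0.0759) and MCM4 (-0.50, adjusted p = 0.203) did not pass. CYCD4;1, a D-type cyclin, had the list's highest change at 0.56 (adjusted p = 0.091).

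Of 11 tested embryo and aleurone genes, 5 rose and none fell, beside 4.23% of all tested loci called higher. The list median was 0.85. Their summed level was 612 to 875 RPKM in WT and 893 to 1647 in the mutants, and none of the tested members was at 0 in a whole genotype. The part of this shift in the results of the other lists was not tested. RAB16A, a dehydrin induced by abscisic acid, stood at 68.7, 39.5 and 29.9 RPKM in the WT libraries, at 234, 118 and 185 in those of P1MH and at 76.2, 142 and 85.1 in those of P3MH. The groups did not overlap, although the lowest P3MH library lay close to WT replicate 1. The fitted log2 difference came to 1.56 (SE 0.29, limma adjusted p = 0.00895).

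LEA3-2, a late embryogenesis abundant protein, lay at 10.2, 6.82 and 6.64 RPKM in the WT libraries, at 20.3, 18.4 and 15.1 in those of P1MH and at 14.5, 18.76 and 11.6 in those of P3MH. It rose by 0.98 (SE 0.17, limma adjusted p = 0.00487), with separate groups. RAB16B rose by 1.15 (adjusted p = 0.00805) from only 1.41 ± 0.585 RPKM in WT, OLE18, an oleosin of oil bodies, by 0.74 (adjusted p = 0.0259), and TIP3;1, an aquaporin of storage vacuole membranes, by 0.55 (adjusted p = 0.0414). RAB16A and RAB16B lost their calls without WT replicate 2 or 3, and OLE18 and TIP3;1 without any 1 WT library. The call of OLE18 was lost in 8 of 21 alternative settings, among them quantile normalization. That of TIP3;1 was lost in 13 of 21, among them the values as deposited. LEA3 and EM, with changes of 0.85 and 0.92, did not pass (limma adjusted p = 0.236 and 0.204), and LIP9, another dehydrin, had -0.40 (adjusted p = 0.353). The RAB16 genes are near-copies on chromosome 11, and sharing of reads was not tested.

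Heat shock genes split by member: 3 of 15 tested fell and none rose, while the list median was 0.18. HSP26.7, a small heat shock protein, stood at 16.2, 13.2 and 12.4 RPKM in the WT libraries, at 4.29, 3.85 and 3.13 in those of P1MH and at 3.33, 8.79 and 4.18 in those of P3MH. All mutant libraries lay below WT, and 1 P3MH library stood above the other mutants. A change of -1.47 on the log2 scale was estimated (SE 0.22, limma adjusted p = 0.00185). HSP23.2 stood at 5.70, 2.72 and 1.27 RPKM in WT, was listed at 0 in 2 P1MH libraries and at 0.337 in the third, and had 0.296 to 0.573 in P3MH. It fell by 1.60 on the log2 scale (limma adjusted p = 0.0051), with the mutant values near the floor of 3 reads. HSP18.1 changed by -0.84 (adjusted p = 0.0274), a call lost in 6 of 20 alternative settings, among them without WT replicate 1 or 2. HSP18.6, with 2.11 to 3.91 RPKM in WT and 3.15 to 15.5 in the mutants, had a change of 0.98 that did not pass (limma adjusted p = 0.0589). HSP101 and the HSP90 genes HSP81-1 and HSP81-2 had changes of 0.18 to 0.28 and did not pass.

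**Figure D3:**
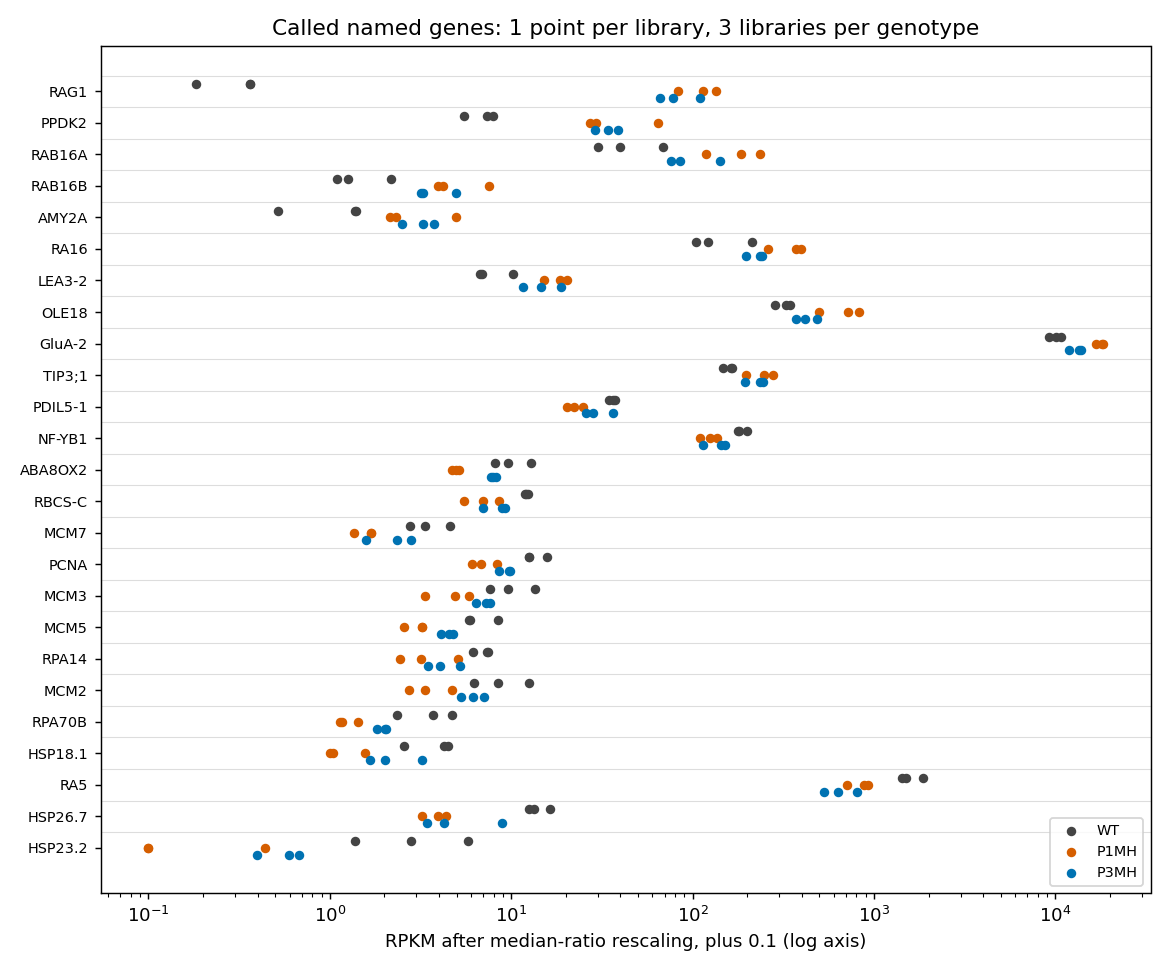
RPKM after median-ratio rescaling, plus 0.1 so that 0 can be drawn (x axis, log scale), of the 25 called named genes in each of the 9 libraries, 3 points per genotype, ordered by pooled log2 fold change. RAG1 is below 0.3 RPKM in WT and above 65 in every mutant library. The library ranges of P1MH and P3MH are separate at 11 of the 25 genes, among them ABA8OX2, and overlap at 14.

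The remaining lists had few calls. RBCS-C, a small subunit of Rubisco, was the 1 gene of 5 photosynthesis genes that fell, from 12.0, 11.8 and 12.3 RPKM in the WT libraries to 8.48, 5.39 and 6.85 in those of P1MH and 8.77, 9.15 and 6.85 in those of P3MH. Its groups were separate with a log2 difference of -0.62 (SE 0.14, limma adjusted p = 0.0217), while the chlorophyll-binding genes CAB1R and CAB2R had 0.03 and -0.03, each with opposite signs in the lines, and did not pass. AMY2A, an alpha-amylase, rose by 1.02 (SE 0.24, limma adjusted p = 0.0248) from 1.29, 0.42 and 1.28 RPKM in WT to 2.04 to 4.88 in the mutants, and AMY3E did not pass. ABA8OX2, an abscisic acid 8'-hydroxylase, which starts the breakdown of that hormone, fell by 0.61 on the log2 scale (SE 0.14, limma adjusted p = 0.0218), from 8.07 to 12.8 RPKM in WT to 4.64 to 5.06 in P1MH and 7.62 to 8.19 in P3MH. Its P3MH libraries overlapped WT. The calls of RBCS-C and AMY2A were lost without any 1 WT library, and that of ABA8OX2 without WT replicate 1 or 2. AMY2A also lost its call with no filter, and ABA8OX2 with the 6 mutant libraries as 1 group. No other gene of the 6 tested abscisic acid genes passed; TRAB1, a bZIP factor of that pathway, had 0.57 with separate groups (limma adjusted p = 0.0836).

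No gene was called among 7 clock, 3 MADS, 8 housekeeping, 5 nitrogen assimilation and 2 alcohol dehydrogenase genes. The clock genes PRR95 and PRR73 had log2 differences of -0.10 (SE 0.12) and -0.01 (SE 0.12). The endosperm MADS-box genes MADS7 and MADS29 had differences of 0.14 (SE 0.14) and -0.18 (SE 0.17). MADS6 had the largest change of that list, -0.42 (limma adjusted p = 0.0804), and passed only with the values as deposited. Of the glycolytic GAPC3 and GAPC1, the differences were -0.38 (SE 0.24) and -0.15 (SE 0.16), and the glutamine synthetases GS1;1 and GS1;3 had 0.05 (SE 0.10) and 0.28 (SE 0.16). ADH1 and ADH2 had differences of 0.21 (SE 0.15) and 0.04 (SE 0.24). In PRR95, PRR73, GS1;1 and ADH2 the lines had opposite signs, for ADH2 -0.36 in P1MH and 0.45 in P3MH.

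The largest falls were at loci listed at 0 in every mutant library. LOC_Os08g15276 (chromosome 8, 9265773 to 9266144) stood at 85.1, 109 and 111 RPKM in WT, and LOC_Os04g16828 (chromosome 4, 9157268 to 9157639) at 79.1, 102 and 104. Both are 372 bases long and had nearly the same WT values. In all, 29 loci were listed at 0 in all 6 mutant libraries and had at least 1 RPKM in all 3 WT libraries, with a median of 15.3 RPKM in WT and a median span of 411 bases, beside 3724 over all tested loci. Of the 29, 19 shared their exact span with another of the 29, in 5 span lengths spread over 6 chromosomes. Steps could be read at 19 loci, and 18 of those had 0.5-read values in a WT library, beside 1173 of the 1526 tested loci with readable steps (76.9%). Whether the steps bear on their absence in the mutants was not tested.

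The opposite pattern was seen at 23 loci, listed at 0 in all 3 WT libraries and with at least 1 RPKM in all 6 mutant libraries, with a median of 3.68 RPKM in the mutants. None of these shared its span with another of the 23. After RAG1, the largest rise by the same rule was at LOC_Os11g01170 (chromosome 11, 100824 to 104177), listed at 0 in 2 WT libraries and at 0.482 RPKM in the third, against 35.8, 31.8 and 27.5 in P1MH and 39.0, 49.0 and 32.5 in P3MH. On the log2 scale the mutants differed from WT by 4.99 (SE 0.17, limma adjusted p = 1.45e-09). The most abundant lower locus in WT, LOC_Os05g26386, stood at 7454, 25567 and 20343 RPKM in the WT libraries, at 496, 387 and 94.0 in those of P1MH and at 134, 648 and 798 in those of P3MH. WT replicate 1 was the lowest WT library, and every mutant library was far below it (log2 fold change -5.58, SE 0.71, limma adjusted p = 0.00158). Whether this locus shares reads with other loci was not tested.

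Along the chromosomes, called loci were followed by a called locus more often than other loci were, which is a description with no test. The next tested locus was called after 14.8% of called loci and after 6.85% of loci not called. A lower locus followed a lower one in 13.4% of cases and a higher one a higher one in 8.27%, beside 3.22% and 4.23% of all tested loci. After a higher locus 4.73% were lower, and after a lower locus 3.88% were higher. By chromosome, 5.68% (chromosome 9) to 9.84% (chromosome 11) of tested loci were called, leaving out 9 loci on no numbered chromosome. The densest run of 20 tested loci, between 8948206 and 9160548 of chromosome 4, held 11 called loci, all lower, and 7 of these were among the 29 listed at 0 in the mutants. Another run, on chromosome 6 between 30479410 and 30826114, held 9 lower loci and none higher. The run on chromosome 7 between 6108034 and 6746344 held 7 higher and 2 lower loci and includes RAG1, RA16 and RA5. Its summed level was 26881 to 35791 RPKM in WT and 22148 to 34796 in the mutants, with overlapping ranges. Most of this sum came from loci other than RAG1, RA16 and RA5. The run on chromosome 4 summed to 383 to 443 RPKM in WT and 46.0 to 151 in the mutants. That on chromosome 6 summed to 274 to 290 and 131 to 154 RPKM. These runs were chosen by their calls.

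**Figure D4:**
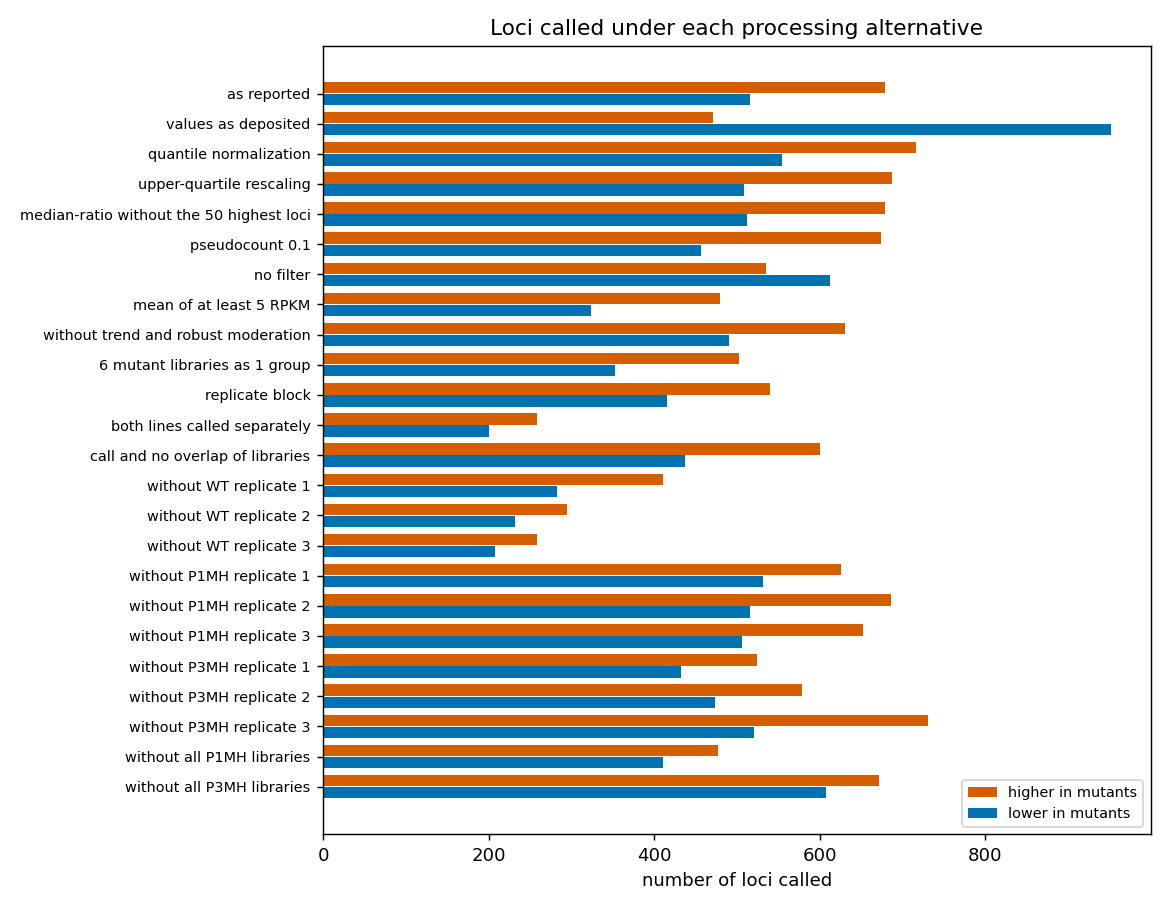
Number of loci called higher and lower in the mutants (x axis from 0) as reported and under each alternative. Counts stand at 679 and 516 as reported and are lowest where a WT library is left out or where both lines must pass separately (258 and 200).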

How the data were processed

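Per the labels' protocols, dehulled seeds gave total RNA that went into ScriptSeq v2 libraries. A single table deposited by the authors holds RPKM for 55986 loci, with 1 column per library, per the file headers; all 9 columns were matched by name and 0 were left unused. Of the aligner, the counting tool and the build, each is not given in the sources used here. Read totals were recovered from RPKM steps, at a tolerance of 0.001 read, at loci with under 200 reads.

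RPKM values were divided by median-ratio size factors, loci with a mean of at least 1 RPKM were kept, and log2(RPKM + 1) was fitted with limma 3.58.1 (R 4.3.3; mean-variance trend, robust moderation, 1 coefficient per genotype). The contrast was the mean of both lines against WT, with Benjamini-Hochberg adjustment over all 16047 loci at 0.05. This scale understates changes of low loci. P-values rest on the spread between samples within a genotype, so a difference between the mutant lines does not enter that spread. With the 6 mutant libraries fitted as 1 group, 503 loci were called higher and 352 lower. Tables were made with pandas 2.3.3 and numpy 2.4.6 in Python 3.11.15, and plots with matplotlib 3.10.9.

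Gene names were listed by hand and checked against RefSeq (ASM3414082v1): same chromosome, span ratio 0.8 to 1.25 and increasing order. Of 193 names 176 passed, 65 of them fixed with the design and 111 added later. The 17 that did not pass include 2 left out by hand for their position. The loci, lists and tests were chosen with earlier results of these data known. Named were RBP-P, called list members, the 2 most abundant members of lists without calls, and the 2 largest rises and falls among called loci with separate groups and at least 5 RPKM; other genes were chosen after their values were seen. Alternatives were other scalings, pseudocounts, filters and designs, and leaving out libraries.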

Additional observations from a re-analysis of the deposited data

Results flagged for a closer look

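Among the 6 mutant libraries, PPDK2 had a P1MH library at 64.6 RPKM that stood apart from the other 5, at 27.1 to 38.8, with a gap of 0.686 of the whole range. HSP26.7 had a P3MH library at 8.79 RPKM, above the others at 3.13 to 4.29, with a gap of 0.795 of the range. Both exceed Dixon's critical value for 6 samples, and 33 genes were examined, of which chance would mark about 1 in 20. That value and that rate assume a single population, whereas the 6 libraries come from both mutant lines, so neither holds exactly here.

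The lines differed from each other at 2 called loci by limma. LOC_Os01g16140 had a mean of 7.77 ± 1.23 RPKM in WT (SD, n = 3 per genotype), against 9.43 ± 0.519 for P1MH and 29.0 ± 5.89 for P3MH, so that P1MH minus P3MH was -1.50 on the log2 scale (limma adjusted p = 0.0144). LOC_Os12g28015 had a mean of 18.63 ± 4.44 RPKM in WT, against 18.50 ± 7.78 for P1MH and 1.70 ± 0.969 for P3MH, a difference of 2.85 (limma adjusted p = 0.0261). In P1MH the latter had a change of only -0.07 from WT, so its pooled call came from P3MH.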

How the results depend on the processing

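Leaving out 1 library at a time gave 258 to 731 higher and 207 to 531 lower loci. Without rescaling 952 loci were lower, and with a mean of at least 5 RPKM 323 were, where only 9044 loci were tested. Calls required in both lines separately numbered 258 and 200. Every other alternative gave counts within 1.5 times those reported, and none of the 25 called named genes changed sign under any alternative, whereas 53 of the 126 named genes not called had both signs. Of the 25 called named genes, 6 (RAG1, RA5, PPDK2, LEA3-2, HSP26.7 and HSP23.2) kept the call in every alternative in which they were tested (19 for HSP23.2, 21 for the others), while 14 genes not called passed in at least 1. With all P1MH libraries left out, the calls of GluA-2, RA16, NF-YB1, PDIL5-1, RAB16A, OLE18, TIP3;1, HSP18.1, RBCS-C and ABA8OX2 were lost. So were those of the 7 replication genes. With all P3MH libraries left out, TIP3;1 and AMY2A lost theirs. No pairing by replicate number was seen in the deviations from genotype means. Same-numbered libraries of different genotypes correlated at -0.304 to 0.113, and differently numbered ones at -0.207 to 0.296. A fit with a replicate block gave 540 higher and 415 lower loci, of which 521 and 390 were shared with the reported calls. Depth limits loci near 1 RPKM.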
